A study of Mus musculus with 36 samples.

Results

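The comparison described here is the transcript response of mouse primary cortical neurons to homocysteic acid (HCA) while a low dose of sodium selenite was present. Its members are 12 of the 36 RNA-seq libraries of the series: 6 cultures given HCA with selenite at 0.1 and 6 given selenite at 0.1 alone, 1 pair from each of 6 numbered culture batches. All cultures came from CD1 mouse pups, an outbred strain, at embryonic day 15. They were plated for 24 h and then exposed for 6 h, and HCA was given at 5 mM. The selenite dose carries no unit here because the sample labels write mM and the series text micromolar for the same numbers. The other 24 libraries (control, HCA alone, selenite at 1, and HCA with selenite at 1, 6 each) entered the same model and served for the comparison across selenite levels. The labels do not say how many pups went into a culture batch.

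HCA is an analogue of glutamate that, as background, competes with cystine for the cystine/glutamate antiporter, so that neurons exposed to it run short of cysteine and glutathione. The series text, in contrast, calls HCA an inhibitor of ferroptosis, the iron-dependent death by lipid peroxidation. Shortage of an amino acid activates the kinase Gcn2, which slows general translation and raises the transcription factor Atf4. Atf4 acts on genes for amino acid transport, amino acid synthesis and tRNA charging by binding composite sites known as C/EBP-ATF response elements. Selenium is built into selenoproteins, among them Gpx4, which detoxifies lipid peroxides.

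Gene names rest on an inference about the table, because row identifiers and values did not go together. With all 141862 GENCODE transcripts sorted by identifier, the values of a row were assigned to the transcripts 1 place ahead of those of the gene on its label. A check of this used the decimals of the values. A gene with a single transcript should tend to receive whole numbers of reads, whereas reads shared between transcripts are split into fractions. At the shift of -1, rows holding a single-transcript gene were separated from other rows by their share of whole values with an area under the curve of 0.704 (227 against 2836 rows), and it was 0.508 to 0.548 at the other shifts where it could be computed. Of those 227 rows, 71 (31.3%) held whole values in every library. At shift 0, the labels as deposited, the area could not be computed, because every row checked then belonged to a single-transcript gene. There 158 of 1601 rows (9.87%) held whole values in every library. A gene was named only where all coding transcripts in its row came from that gene, which gave 7125 tested genes. A row with coding transcripts of more than 1 gene is written with all of them, and which of these moved cannot be told apart. The symbol deposited with a row stands in brackets at the first mention of most genes.

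Library totals were 34.3 to 48.75 M estimated counts. Rows holding ribosomal RNA took 19.63% to 88.57% of the counts under selenite and 18.43% to 74.26% under HCA with selenite, and the mean difference was -2.67 percentage points (two-sided exact permutation test within batches, p = 0.938, smallest possible 0.0312). Counts outside these rows were 4.95 to 39.18 M under selenite and 9.67 to 37.77 M under HCA with selenite. The selenite library of batch 5 stood apart: its median correlation with the other libraries was 0.733, against 0.906 to 0.953 for the other 11, and it had a count in 15154 rows against 21827 to 26388. For genes and rows described below, calls that were lost without it are given with and without it.

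HCA with selenite raised a small set of transcripts, led by genes of amino acid supply and tRNA charging and by genes known to be switched on by neuronal activity. In edgeR's quasi-likelihood test with culture batch in the model, 54 of 25588 rows passed an adjusted p of 0.05, 48 higher (0.188% of rows) and 6 lower (0.0234%). Through rows of a single coding gene, 17 of 7125 named genes were higher (0.239%) and 1 was lower (0.014%). Another 28 of the 48 higher rows held several coding genes, 1 was a second row of a named gene and 2 held no coding transcript. In 42 of the 48 higher rows every HCA library lay above every selenite library. Such separation upward was found in 147 of all rows (0.574%). Fitted to the 12 libraries alone, the same model called 8 rows, all higher, and of the named genes only Eif4ebp1 remained. The cause of that fall was not tested. Without the batch term 37 rows were higher and 4 lower. Without the selenite library of batch 5 they were 51 and 10, and 46 of the 54 rows kept their call. Leaving out the pair and all other libraries of batch 1, 2, 3 or 4 left 29, 33, 30 and 31 calls, while DESeq2 called 242 rows and limma voom 164.

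**Figure D1:**
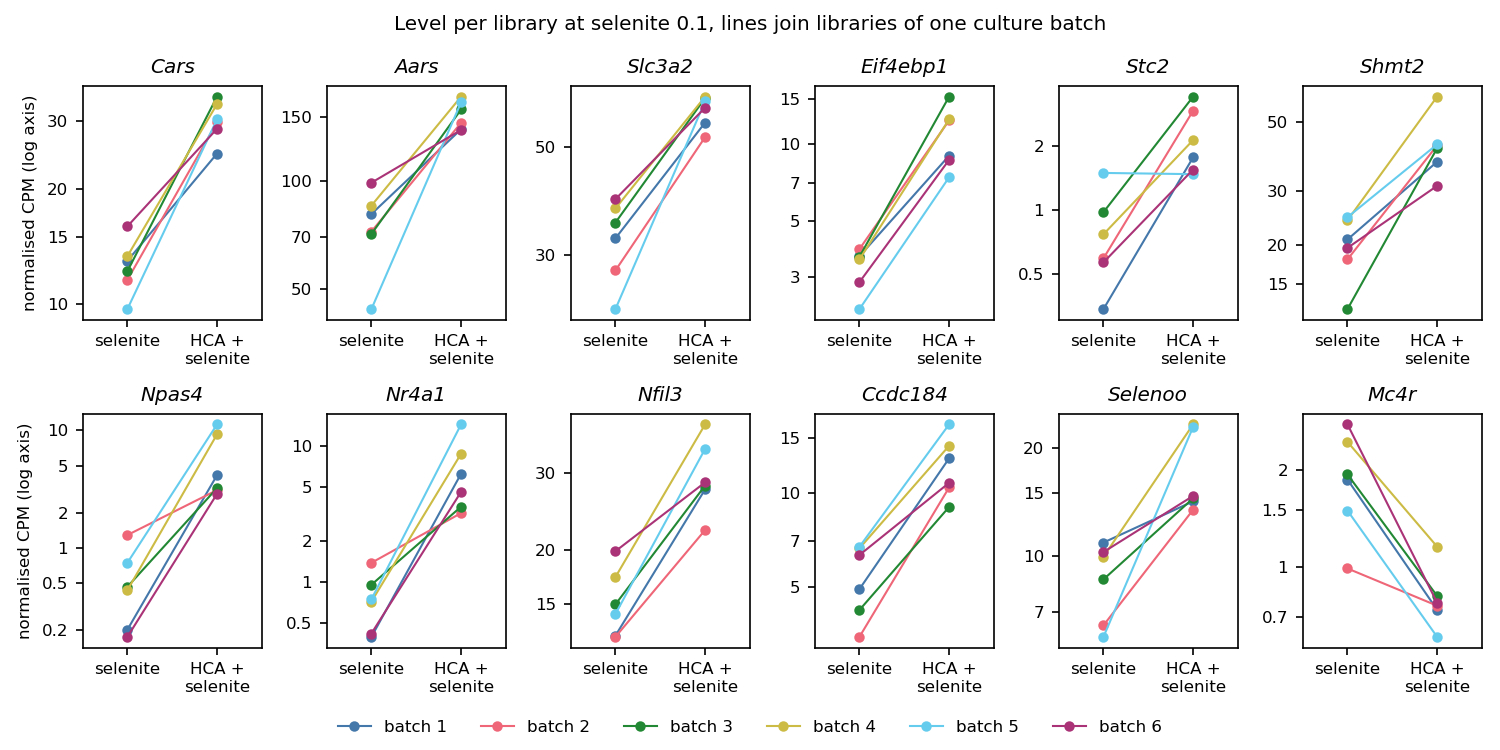
Counts scaled to library size (CPM, log axis) of 12 of the 18 named genes past the threshold, for each selenite and each HCA with selenite library. Lines join the pair of a culture batch. All lines rise for the 11 genes other than Mc4r, except that of Stc2 in batch 5, and all lines fall for Mc4r.

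Among genes of tRNA charging, Cars (Cd164l2; chr7:143557230-143600090, minus strand, GRCm38), the cysteinyl-tRNA synthetase, had the lowest p of any named gene. Its level, as counts scaled to a common library size (CPM), was 9.72 to 15.97 under selenite (median 12.59) and 24.73 to 34.8 under HCA with selenite (median 30.12). The groups did not overlap, and HCA was higher in 6 of 6 batches. The fitted rise was 1.24 ± 0.13 (log2, SE, n = 6 and 6), or 2.36-fold, with an adjusted p of 7e-07. A row of Cars shared with Olfr1308 and Pnpla6 rose by 1.46 ± 0.24 (adjusted p = 0.0011). Another, shared with Mcm7 and Snap25, was at -0.45 ± 0.21 and did not pass (adjusted p = 0.838). Aars (Cdh15; chr8:111033144-111057664, plus strand), the alanyl-tRNA synthetase, went from 44.1 to 98.62 CPM (median 76.53) to 138 to 170.6 CPM (median 150.8). Its groups were apart as well, and the rise was 1.01 ± 0.15 (log2, SE, adjusted p = 0.00042). Of the 10 cytosolic aminoacyl-tRNA synthetases tested through their own row, these 2 passed and 0 were lower, with a median of 0.49 (log2) over the list against 0.05 over all named genes. The other 8 did not pass: Iars was at 1.13 ± 0.45 and Lars at 0.43 ± 0.20 (log2, SE, adjusted p = 0.718 and 0.831), while Dars was at -0.42 ± 0.21 and Qars at -1.49 ± 0.78 (adjusted p = 0.856 and 0.887). None of the 6 synthetases of mitochondria passed, and their median was -0.08. Cars2, the mitochondrial cysteinyl-tRNA synthetase, was at -0.87 ± 0.27 (adjusted p = 0.374) and passed as lower with DESeq2 and limma voom (0.0176 and 0.0308). The row shared by Yars with 4930432M17Rik, Arhgap29, S100pbp and Zranb2 rose by 0.78 ± 0.12. The row of Gars, Hnrnpa3 and Macf1 rose by 0.81 ± 0.14, and that of Sars and Tspan18 by 0.55 ± 0.12 (adjusted p = 0.047). The Sars row lost its call without the selenite library of batch 5 (adjusted p = 0.0788) and without the batch term (0.158). It also lost it without the filter on low counts (0.0566) and without batch 1, 2, 3, 4 or 5 in turn (0.0863 to 0.535).

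Atf4 itself could be read only through rows shared with other genes. The row of Atf4, Npr2 and Pcsk1 had the lowest p in the table (adjusted p = 8.5e-09). It held 36.62 to 47.66 CPM under selenite (median 40.4) and 90.75 to 120.9 under HCA with selenite (median 108.5), so the groups were far apart. Its rise of 1.38 ± 0.11 (log2, SE) varied little between batches, from 1.23 in batch 1 to 1.67 in batch 3. A second row, with Atf4, Pdzd11, Pkp4 and Slc39a11, was at 0.53 ± 0.28 and did not pass (adjusted p = 0.887).

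Of 13 tested targets of Atf4, 6 were higher (46.2%, against 0.239% of all named genes) and 0 lower, and the list's median was 0.77. The list was assembled from known targets, several of which had appeared in earlier results of these data, so it is no independent evidence. Eif4ebp1 (Chrna6; chr8:27260329-27276674, plus strand), a repressor of cap-dependent translation, had 2.24 to 3.86 CPM under selenite (median 3.56) and 7.4 to 15.35 under HCA with selenite (median 10.69). The groups did not overlap and the rise was 1.68 ± 0.22 (log2, SE, adjusted p = 5.3e-05). This was the named gene that kept its call under all 15 alternatives tried. Slc3a2 (Nxf1; chr19:8706882-8723369, minus strand), the heavy chain shared by the cystine antiporter and by carriers of large neutral amino acids, had 23.17 to 38.99 CPM (median 33.64) without HCA and 52.3 to 63.35 (median 61.04) with it. All HCA libraries were above all others, and the rise was 0.86 ± 0.12 (log2, SE, adjusted p = 9.2e-05). A second row of Slc3a2 alone was at 0.18 ± 0.43 and did not pass (adjusted p = 1.0). Of its 5 rows shared with other genes, 1 (with Myh1) rose, by 1.15 ± 0.20, and the other 4 were at -0.41 to 0.81 and did not pass.

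Stc2 (Vmn2r81; chr11:31357307-31370074, minus strand), a secreted glycoprotein, had 0.343 to 1.5 CPM under selenite (median 0.682) and 1.48 to 3.41 under HCA with selenite (median 1.95). It was higher in 5 of 6 batches, and the selenite library of batch 5, at 1.5 CPM, lay above the HCA library of that batch, at 1.48. That selenite level rests on few counts. The rise of Stc2 was 1.69 ± 0.27 (log2, SE, adjusted p = 0.0011). Shmt2 (Inhbc; chr10:127517123-127522444, minus strand), the mitochondrial serine hydroxymethyltransferase, went from 12.45 to 24.66 CPM (median 20.27) to 31.15 to 60.48 (median 41.66), a rise of 1.12 ± 0.21. Aldh18a1 (Tctn3; chr19:40550257-40588463, minus strand), which makes the precursor of proline, rose by 1.01 ± 0.20 from a median of 22.83 CPM to 48.33. Gpt2 (Dnaja2; chr8:85492576-85527560, plus strand), the mitochondrial alanine transaminase, rose by 0.63 ± 0.14 from 19.01 to 27.38. The groups of all 3 enzymes did not overlap. Shmt2 lost its call without batch 1, 3 or 4 (adjusted p = 0.0514, 0.136 and 0.0646). Aldh18a1 lost it without batch 2, 3, 4 or 5 (0.0937 to 0.234) and Gpt2 without batch 1, 2, 3 or 5 (0.145 to 0.401). Leaving out only the selenite library of batch 5 also ended the calls of Aldh18a1 and Gpt2 (adjusted p = 0.0519 and 0.0754). Of the 6 called Atf4 targets, 3 kept their call without batch 3 (Eif4ebp1, Slc3a2 and Stc2).

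Among rows shared by a known Atf4 target and other genes, 11 of 76 rose and 0 fell. Over all 25588 rows, 48 were higher (0.188%). The row of Asns, the asparagine synthetase, with Adipoq and Dap3 rose from a median of 24.02 to 77.98 CPM (1.68 ± 0.15, log2, SE). Mthfd2, a folate enzyme of mitochondria, with Tctex1d4 rose from 9.49 to 22.87 CPM (1.45 ± 0.13). Slc7a5, the light chain that pairs with Slc3a2, shared a row with Zfp637 that rose from 27.76 to 72.73 CPM (1.40 ± 0.13). The row of Pck2, the mitochondrial phosphoenolpyruvate carboxykinase, with Impg1 rose by 1.79 ± 0.21, and that of Trib3, a pseudokinase that restrains Atf4, with Sult4a1 by 2.57 ± 0.49. The row of Chac1, which degrades glutathione, with Zbtb20 rose from 7.5 to 21.86 CPM (1.64 ± 0.24). Sesn2, a leucine sensor that restrains mTORC1, lay in a row with Pdlim7, Phactr4, Tnnt3 and Zscan2 that rose by 1.67 ± 0.16. Psph, the last enzyme of serine synthesis, lay with Arpp21 and Zfp263 in a row that rose by 1.05 ± 0.20. In each of these 8 rows the selenite and HCA libraries did not overlap, and all 6 batches were higher. A row of Ddit3, a death-associated factor of the same response, with Pgbd5 was at 1.04 ± 0.25 and did not pass (adjusted p = 0.0754). Another row of Ddit3, with Dlg5 and Ifi213, was at -0.16 ± 0.39 and did not pass either. Another row of Pck2, with Ap5m1 and Washc1, was at 0.49 ± 0.575 and did not pass.

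Start-site sequences are shown for members of these lists because Atf4 is known, as background, to read the letters TGATGNAAN, where N is any base. RefSeq promoters (GRCm38.p6, 250 bases before to 50 after the start site) were searched on both strands for these letters, and on the other strand they read NTTNCATCA. At least 1 match lay in the promoters of 12 of the 32 Atf4 targets that had an entry (37.5%) and of 5 of 13 cytosolic aminoacyl-tRNA synthetases (38.5%). Over all 27025 genes with an entry the share was 4.5%. Of the 17 named genes that were higher, 14 had an entry and 1 of them, Aars, held the letters (7.14%). A match is a description of letters and not of binding. The lists were set beforehand, the first as known targets of Atf4, so their shares are no result of this comparison. Apart from Aars, the genes shown were read through shared rows, in which the gene that moved cannot be told apart. The stretches below are shown because each belongs to a gene whose row, its own or a shared one, passed the test as higher. Each is written 5′ to 3′ on the strand of the gene, and capitals mark the match.
Aars, chr8:111033840-111033868, plus strand, match from position 8 relative to the start site: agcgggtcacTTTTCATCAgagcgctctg
Chac1, chr2:119351038-119351066, plus strand, match from position -194: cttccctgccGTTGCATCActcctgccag
Herpud1, chr8:94386306-94386334, plus strand, match from position -113: accacggcggGTTGCATCAgcccgcaccc
Pck2, chr14:55540152-55540180, plus strand, match from position -104: agccttcaaaGTTACATCAgtatcttaca
Gars, chr6:55037960-55037988, plus strand, match from position -31: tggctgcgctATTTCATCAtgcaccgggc
Asns, chr6:7693214-7693242, minus strand, match from position -23: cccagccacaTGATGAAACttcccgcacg
Trib3, chr2:152344029-152344057, minus strand, match from position 13: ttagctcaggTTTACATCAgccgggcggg
Yars, chr4:129189896-129189924, plus strand, match from position 3: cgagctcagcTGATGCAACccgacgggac
In 6 of these 8 stretches the match is on the strand opposite to the gene, and Asns and Yars carry it on the gene's own strand. Chac1 and Herpud1 share the same 9 letters.

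Genes induced by neuronal activity were the other group. Of 19 tested immediate early and activity genes, 4 were higher (21.1%, against 0.239% of all named genes) and 0 lower, with a list median of 0.84. Npas4 (chr19:4984355-4990316, minus strand), a transcription factor induced by calcium entry in neurons, had 0.175 to 1.29 CPM under selenite (median 0.452) and 2.89 to 11.26 under HCA with selenite (median 3.7). The groups did not overlap, and the rise of 3.41 ± 0.44 (log2, SE, adjusted p = 4e-05) corresponds to 10.6-fold. Nr4a1 (Krt88; chr15:101254269-101274795, plus strand), an orphan nuclear receptor of the same early wave, had 0.395 to 1.39 CPM (median 0.733) without HCA and 3.22 to 14.45 (median 5.44) with it. It rose by 3.00 ± 0.40 (log2, SE, adjusted p = 6.2e-05), and again every HCA library exceeded every selenite library.

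Fosl2 (Rbks; chr5:32135801-32157842, plus strand), a subunit of the AP-1 factor, rose by 1.35 ± 0.25 (log2, SE), from 2.24 to 12.07 CPM (median 5.92) to 12.69 to 25.37 (median 15.51). Its groups were separated by a narrow margin, and its call was lost without the batch term (adjusted p = 0.103) and without batch 1, 2 or 4 (0.0508 to 0.166). Nfil3 (C330011M18Rik; chr13:52967209-52981073, minus strand), a bZIP repressor tied to the circadian clock, rose by 0.95 ± 0.13, from 12.57 to 19.83 CPM (median 14.57) to 22.2 to 38.96 (median 28.37). The row of Fos, the founding AP-1 gene, with Bfsp2 rose by 2.96 ± 0.29 (log2, SE), from 0.594 to 4.48 CPM (median 1.23) to 5.37 to 23.38 (median 8.18). A row with Vgf, a secreted neuropeptide precursor, Clec2g and Gm16286 rose by 2.14 ± 0.27, although its groups overlapped. The row of Vgf alone was at 1.81 (log2) and did not pass.

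Other members of the list did not pass. Bdnf, a neurotrophin, was at 0 to 0.0125 CPM under selenite and 0 to 0.59 under HCA with selenite, too few counts for a fold change to be read (adjusted p = 0.0741, or 0.0122 with DESeq2). Scg2, a granin of secretory granules, was at 1.88 ± 0.51 (log2, SE, adjusted p = 0.205) and higher in 6 of 6 batches, and it passed with limma voom (0.0114). Per1, a clock gene, was at 1.27 ± 0.47 (adjusted p = 0.654). Egr2 was at 0.36 ± 0.24 and Btg2 at -0.13 ± 0.14. The cAMP response element TGACGTCA was found in the promoters of 4 of the 29 list members with an entry (13.8%: Btg2, Dusp1, Scg2 and Maff), against 2.03% of all genes, and the CArG box in 2 (6.9%: Egr2 and Dusp5), against 1.81%. None of the 14 higher named genes with an entry held either.

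**Figure D2:**
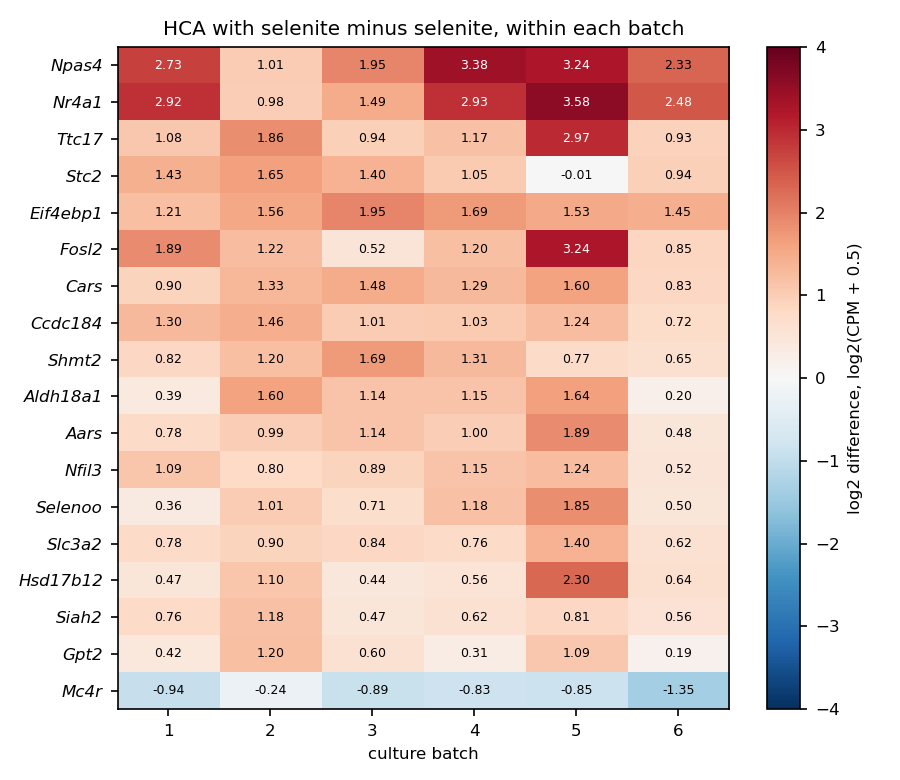
Difference between HCA with selenite and selenite alone within each culture batch, as log2(CPM + 0.5), for the 18 named genes past the threshold, ordered by fitted fold change. Npas4 runs from 1.01 in batch 2 to 3.38 in batch 4, and Eif4ebp1 stays between 1.21 and 1.95.

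The size of the difference varied between batches, more for some genes than for others. On the log2(CPM + 0.5) scale, Npas4 differed by 1.01 in batch 2 and by 3.38 in batch 4, an SD over the 6 batches of 0.883. Nr4a1 ranged from 0.979 in batch 2 to 3.58 in batch 5 (SD 0.98). The SD was 0.249 for Eif4ebp1, 0.308 for Cars, 0.162 for the shared Atf4 row and 0.277 for the shared Fos row. Batch 6 had the smallest difference of the 6 for Cars, Slc3a2, Aars, Ccdc184, Nfil3, Shmt2, Aldh18a1, Gpt2 and Ttc17. The median difference over the 13 Atf4 targets was 0.201 in batch 6 and 0.595 to 0.966 in the other 5. Over all 7125 named genes the median was -0.046 in batch 6, and it lay between -0.08 and 0.103 in every batch but batch 5, where it was 0.552. Batch 5 contains the selenite library that stood apart. Whether the higher median of batch 5 comes from that library was not tested. These are descriptions, and the differences between batches were not tested.

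Of genes of selenium use and of ferroptosis, Selenoo and Slc3a2 passed the threshold through their own rows. Among 11 tested selenoproteins 1 was higher and 0 lower, and the median was 0.25. That share of 9.09%, against 0.239% of all named genes, is a single gene. The higher one was Selenoo (Gm24966; chr15:89089084-89100340, plus strand), a mitochondrial selenoprotein that transfers AMP to other proteins. It had 5.98 to 10.91 CPM under selenite (median 9.29) and 13.45 to 23.18 under HCA with selenite (median 14.58), with no overlap. Its rise of 0.87 ± 0.19 (log2, SE, adjusted p = 0.0371) lost its call without the batch term (adjusted p = 0.158), without the selenite library of batch 5 (0.0683) and without batch 1, 2, 3, 4 or 5 in turn (0.0514 to 0.261). Gpx4 was read through 1 row of its own at 0 to 2.1 CPM under selenite and 0.259 to 2.69 with HCA added, and it did not pass (-0.36 ± 0.59). Its 2 shared rows did not pass either (0.25 ± 0.22 with Ccdc80 and Wdtc1, and 0.37 ± 0.16 with Ank3, Ap2m1, Gapdhs and Usp17la). Sephs2, which makes the selenium donor for selenoprotein synthesis, was at 0.15 ± 0.16, and 0 of 8 genes of the selenium machinery passed (median 0.13).

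Of 12 genes that protect from ferroptosis, Slc3a2 was the only one past the threshold (8.33%, against 0.239% of all named genes higher). Of 12 that promote it, 0 passed through their own row (medians 0.24 and 0.21). Among shared rows, 1 of 55 with a protecting member rose (Slc3a2 with Myh1, 1.15 ± 0.20), where 0.188% of all rows were higher. Of 63 with a promoting member 1 rose (Chac1 with Zbtb20, 1.64 ± 0.24, adjusted p = 1.9e-04). Fth1, the ferritin heavy chain, was at 0.41 ± 0.14 and Slc11a2, an iron importer, at 0.68 ± 0.23, both higher in 6 of 6 batches and neither past the threshold (adjusted p = 0.585 and 0.525). Slc7a11, the light chain of the cystine antiporter, appeared only in a row with Dag1 and Naa15, at 0.35 ± 0.23 (adjusted p = 0.944). In glutathione and cysteine metabolism 1 of 9 passed (11.1%), again Slc3a2, with a median of 0.03. Of its 50 shared rows 2 rose, those of Slc3a2 with Myh1 and of Chac1 with Zbtb20. None of 5 targets of the oxidant sensor Nrf2 passed (median 0.03), and the shared row of Srxn1 with Tbx5 was at -1.07 ± 0.31 (adjusted p = 0.29). These lists share members, and only 5 to 12 members of each could be tested through a row of their own.

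**Figure D3:**
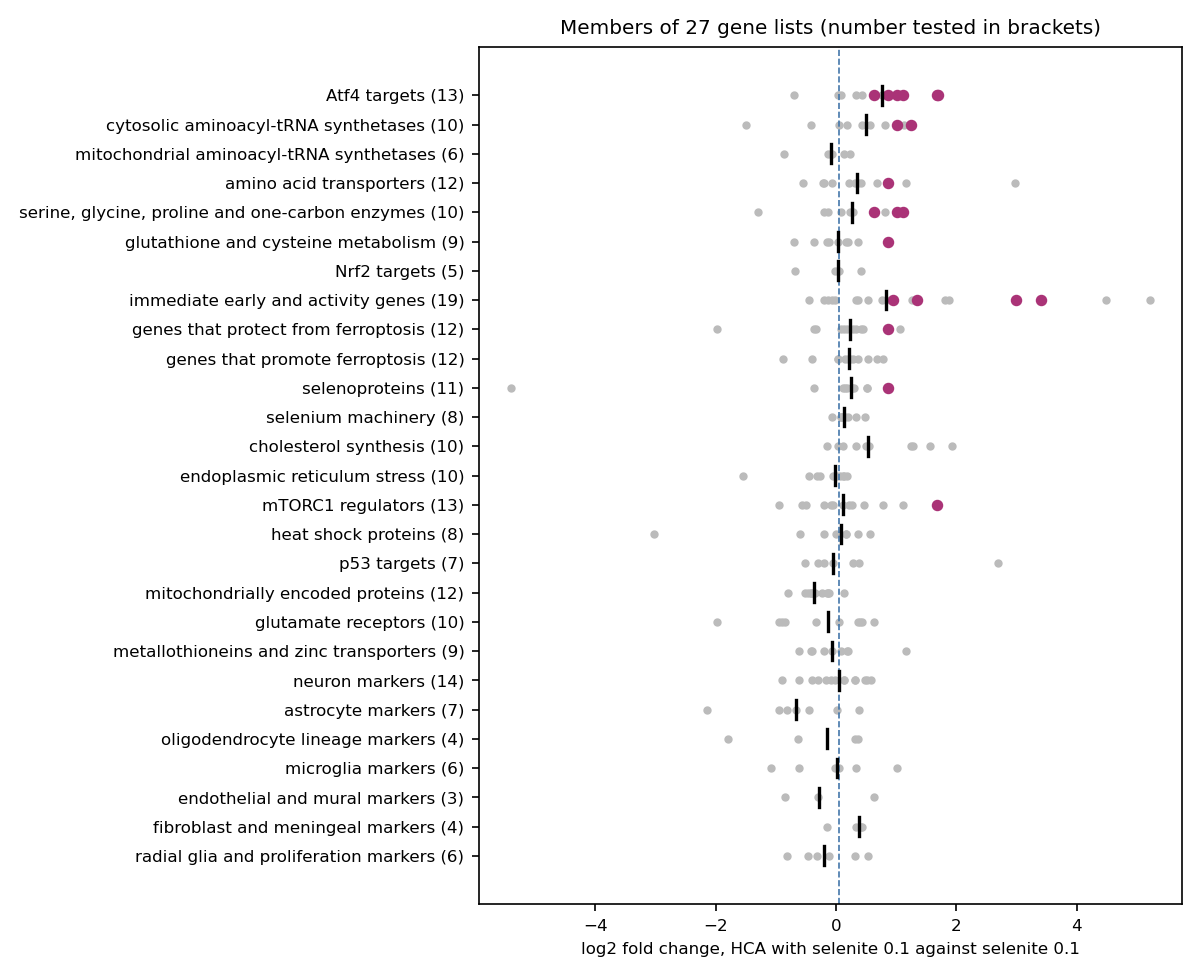
Log2 fold change of each tested member of 27 gene lists (grey, or magenta where past the threshold). The black bar is the list's median and the dashed line the median of all named genes at 0.05. All magenta points lie to the right of it, most of them in the lists of Atf4 targets and of activity genes, with 6 and 4. Serine, glycine, proline and one-carbon enzymes hold 3 and cytosolic aminoacyl-tRNA synthetases 2. Amino acid transporters, glutathione and cysteine metabolism, genes that protect from ferroptosis, selenoproteins and mTORC1 regulators hold 1 each.

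Amino acid carriers other than Slc3a2 were less clear. Slc7a3, a carrier of cationic amino acids, had 0 to 1.19 CPM under selenite (median 0.546) and 1.36 to 4.88 under HCA with selenite (median 2.87). The groups did not overlap, but its log2 difference of 2.98 ± 0.79 missed the threshold (adjusted p = 0.163), although it passed with DESeq2 and limma voom (0.00775 and 0.00102). The row of its relative Slc7a1 with Gm3012 rose by 1.25 ± 0.19, from a median of 8.65 to 22.57 CPM. In all, 1 of 12 tested carriers passed and the median was 0.35. Of 10 enzymes of serine, glycine, proline and one-carbon metabolism 3 passed (Shmt2, Aldh18a1 and Gpt2), with a median of 0.27. Mthfd1l was at 0.82 ± 0.29 (adjusted p = 0.584) and passed with DESeq2 (0.0016).

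In cholesterol synthesis 0 of 10 genes passed, although 9 were above 0 and the median was 0.53. Fdps, which makes farnesyl pyrophosphate, had 0 to 4.94 CPM under selenite (median 3.54) and 5.97 to 17.89 under HCA with selenite (median 15.14), with no overlap and a difference of 1.93 ± 0.48 (log2, SE, adjusted p = 0.117). It passed with DESeq2, with limma voom and without batch 2 (adjusted p = 0.00398, 0.00541 and 0.0354). Msmo1, a sterol oxidase, was at 1.57 ± 0.51 (adjusted p = 0.484) and passed with DESeq2 and limma voom (0.00334 and 0.0363). Of 10 genes of endoplasmic reticulum stress 0 passed (median -0.02), although the row of Herpud1, which acts in degradation of misfolded proteins, with Ggact, Ints12, Sema3f and Sp140 rose by 0.95 ± 0.13. Of 13 regulators of mTORC1, Eif4ebp1 alone passed (7.69%, against 0.239% of all named genes higher), with a median of 0.12.

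Genes outside these lists were also called. Ccdc184 (2210010C04Rik; chr15:98167158-98170134, plus strand), a coiled-coil gene, had 3.47 to 6.73 CPM under selenite (median 5.63) and 9.02 to 16.56 under HCA with selenite (median 11.84). The groups did not overlap and the rise was 1.19 ± 0.16 (log2, SE, adjusted p = 9.2e-05). Hsd17b12 (Alkbh3os1; chr2:94032689-94157964, minus strand), an enzyme of fatty acid elongation, rose by 0.82 ± 0.16 from a median of 17.69 to 27.41 CPM, and lost its call without batch 1, 2 or 4 (adjusted p = 0.0596 to 0.197). Siah2 (Penk; chr3:58674938-58692400, minus strand), a ubiquitin ligase, rose by 0.77 ± 0.15 from 4.77 to 8.15 CPM, and lost its call without the batch term (adjusted p = 0.0631) and without batch 1, 2 or 4 (0.074 to 0.265). Ttc17 (Ccdc8; chr2:94300767-94406689, minus strand) rose by 1.79 ± 0.39 from 0 to 0.821 CPM (median 0.678) to 1.32 to 3.43 (median 1.98), with an adjusted p of 0.043. The selenite libraries of batches 2 and 5 were at 0. Its call was lost without the latter library (adjusted p = 0.0545) and without any single batch (0.0825 to 0.223).

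Mc4r (Ugt8a; chr18:66857704-66860506, minus strand), the melanocortin receptor 4, was the named gene past the threshold downward. It had 0.99 to 2.76 CPM under selenite (median 1.9) and 0.608 to 1.16 under HCA with selenite (median 0.767). It was lower in all 6 batches although the groups overlapped. The change of -1.25 ± 0.28 (log2, SE, adjusted p = 0.0467) lost its call without any single batch (adjusted p = 0.051 to 0.371). The other 5 lower rows each held several genes, and in 1 of them, Ak3 with Mogat1, the groups did not overlap (-0.62 ± 0.14). Such separation downward was found in 38 of all rows (0.149%). The row of Ak3 and Mogat1 lost its call without the selenite library of batch 5 (adjusted p = 0.0683) and without the batch term (0.243).

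The dose of selenite was compared directly by testing whether the HCA response at 0.1 differed from that without selenite and from that at selenite 1. The 3 responses share no library, but they share the 6 culture batches and the model. Neither difference gave a called row (0 of 25588, 0.0%, in each), with 681 and 352 rows at an unadjusted p under 0.05. DESeq2 called 28 and 14 rows and limma voom 1 and 0. A difference that missed the threshold is not shown to be absent. All 54 called rows had the same sign without selenite and at selenite 1. Over all rows the share with the same sign was 62.5% and 57%. Of the 48 higher rows, 38 (79.2%) were also among the 66 rows (0.258%) called higher by HCA without selenite, 57.6% of those. At selenite 1, 32 of the 48 (66.7%) were among the 42 rows (0.164%) called higher, 76.2% of those.

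**Figure D4:**
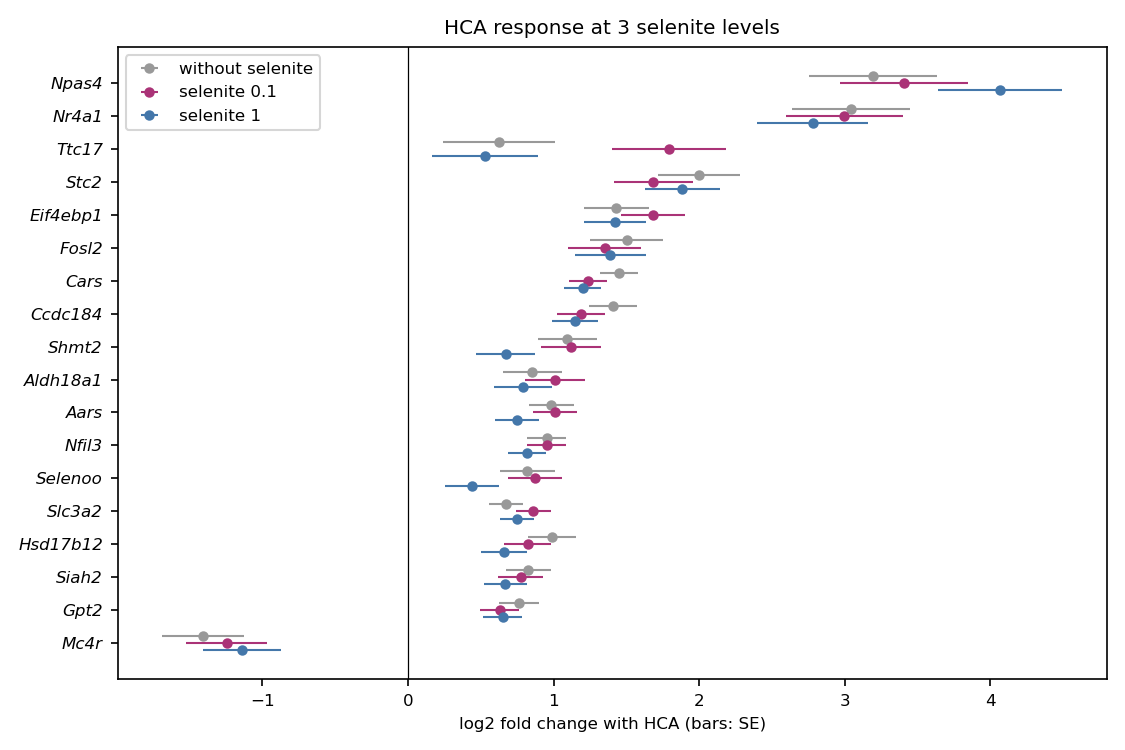
Fitted log2 fold change with HCA (points, bars are SE) for the 18 named genes past the threshold at selenite 0.1, beside the same genes without selenite and at selenite 1. Ttc17 is the gene whose 3 values lie farthest apart, at 0.62, 1.79 and 0.53. The genes were chosen by the values at 0.1.

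The fitted HCA responses of single genes at the 3 selenite levels are given side by side (log2, SE). Cars was at 1.45 ± 0.13 without selenite, 1.24 ± 0.13 at 0.1 and 1.20 ± 0.13 at 1, so that the difference was -0.21 ± 0.18 from the first and 0.04 ± 0.18 from the last. Npas4 was at 3.20 ± 0.44, 3.41 ± 0.44 and 4.07 ± 0.43. Its difference from the response at selenite 1 was -0.66 ± 0.57, the lowest of the 18. Selenoo was at 0.82 ± 0.19, 0.87 ± 0.19 and 0.44 ± 0.18, a difference of 0.43 ± 0.26 from selenite 1. Shmt2 was at 1.10 ± 0.21, 1.12 ± 0.21 and 0.67 ± 0.20 (difference from selenite 1 of 0.45 ± 0.29). Ttc17 differed most, by 1.17 ± 0.54 from the response without selenite and by 1.26 ± 0.53 from that at selenite 1 (unadjusted p = 0.0384 and 0.0237, adjusted p = 1.0 for both). It was the only one of the 18 with an unadjusted p under 0.05 in either difference, and it was chosen for its value at 0.1. Over the 18 genes the median difference was 0.01 and 0.13.

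Cell type markers were read in the same fit, and in bulk RNA fewer cells of a type cannot be told apart from less RNA per cell. The 14 tested neuron markers summed to 647.3 to 1018 CPM under selenite and 865.6 to 1460 under HCA with selenite and were higher in 6 of 6 batches. Most of that sum is Tubb3, a neuronal tubulin, at 0.49 ± 0.19 (log2, SE, adjusted p = 0.738). Member by member, 7 of the 14 were above 0 and 7 below, with a median of 0.05. The neurofilament genes Nefm and Nefl were at -0.89 ± 0.43 and -0.61 ± 0.32 (adjusted p = 0.853 and 0.891). The 7 tested astrocyte markers summed to 39.5 to 70.31 CPM (median 51.97) and 19.11 to 56.69 (median 32.17), and the sum was higher in 1 of 6 batches. Of these, 5 were below 0 and 2 above (Glul at 0.39 and Aldoc at 0.02, log2), with a median of -0.67. Slc1a3, a glial glutamate transporter, was at -0.67 ± 0.27 and Mlc1, a membrane protein of astrocyte endfeet, at -0.94 ± 0.27 (adjusted p = 0.757 and 0.263). Radial glia and proliferation markers (6 tested) were at 51.57 to 167.6 CPM and 76.26 to 114.3, also higher in 1 of 6 batches. Microglia markers (6 tested) were at 6.44 to 13.51 and 5.15 to 18.43 CPM, and oligodendrocyte lineage markers (4 tested) at 5.23 to 13.56 and 5.47 to 15.53. Endothelial and mural markers (3 tested) were at 5.72 to 62.88 and 8.22 to 150.2 CPM, and fibroblast and meningeal markers (4 tested) at 4.04 to 151.5 and 5.01 to 198.7, and both sums were higher in 5 of 6 batches. No marker of the 7 lists passed the threshold in this fit. Mlc1 did with DESeq2, with limma voom and without batch 5, Olig2 with DESeq2 and limma voom, and Nes and Slc1a3 without batch 5 (adjusted p = 0.0213 and 0.0289). The markers Gfap, Aqp4, Slc17a7 and Stmn2 had no row of their own. The part of these shifts in the results above was not tested.

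Of 12 mitochondrially encoded proteins 0 passed, 11 were below 0 and the median was -0.36. The one farthest from 0, mt-Co3, a subunit of cytochrome oxidase, was at -0.79 ± 0.34 (log2, SE, adjusted p = 0.801). The list's median difference ran from -1.24 in batch 5, with the library that stood apart, to 0.21 in batch 6. In 10 glutamate receptor genes 0 passed (median -0.14). Grin2b, a subunit of the NMDA receptor, was at -0.95 ± 0.44 (log2, SE, adjusted p = 0.831). Heat shock proteins (8 tested), p53 targets (7) and metallothioneins with zinc transporters (9) had 0 members past the threshold, with medians of 0.08, -0.05 and -0.07.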

How the data were processed

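The deposited table holds estimated counts per row for 36 libraries, although its name speaks of TPM. The submitters' processing notes list STAR, Salmon and GRCm38 with no version, while the annotation and filter are not given in the sources used here. Per the labels' protocols, ribosomal RNA was depleted with Ribo-Zero Gold. Counts were rounded and fitted with edgeR 4.0.16 (R 4.3.3): filterByExpr by group (minimum count 10), TMM, group plus culture batch over all 36 libraries, quasi-likelihood test, Benjamini-Hochberg over 25588 rows, threshold 0.05. CPM use TMM library sizes. Row identifiers matched GENCODE vM21 for 27094 of 27288 rows (99.29%), and genes were named through the row of highest mean count. The labels give the culture batch, so same-numbered libraries form pairs. Deviations of paired libraries from their group means correlated at -0.0689 to 0.262.

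Alternatives were DESeq2 1.42.0, limma 3.58.1 (voom), other size factors, no filter, no ribosomal RNA rows, a depth covariate, the compared groups alone, no batch term, and leaving out libraries. The scripts were tested on simulated counts with 100 rows changed 2-fold and 100 changed 4-fold. The main comparison called 50% and 86% of them, along with 6 unchanged rows. The difference from the response without selenite called 25% and 69%, along with 2 unchanged rows. Changed rows were drawn from those with a mean above 1 CPM, and the simulation held no batch effect. These shares therefore do not cover lower rows or differences between batches. Named genes are the single-gene rows past the threshold (up to 18 higher and 10 lower by p), shared rows holding a list member, and up to 4 members of each of 27 lists by p. Genes outside this rule (Gpx4, Sephs2, Egr2, Btg2 and Slc7a11, and other members given by value) were chosen after their values were seen. The members and lists were chosen with earlier results of these data known. Promoters are RefSeq's. A few items that the rule covers are not reported here. Nothing says that the 6 libraries of a group came from separate litters, so p-values measure the spread between cultures.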

Additional observations from a re-analysis of the deposited data

Results flagged for a closer look

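Dixon's test at its 95% critical value (0.625 for 6 libraries) was applied to the 40 groups of 6 libraries behind the named genes past the threshold and the library measures, and chance alone flags about 5% of such groups. It picked out 2. In HCA with selenite, the library of batch 5 had 35.2 CPM of Hsd17b12, and the nearest of the other libraries had 28.59 (gap over range 0.672). In the same group, the library of batch 2 had 38.05 CPM of Gpt2, and the nearest had 29.11 (0.638). Without its batch, batch 2, the call of Gpt2 was lost (adjusted p = 0.401). Hsd17b12 kept its call without its batch, batch 5, and lost it without batch 1, 2 or 4 (0.0596 to 0.197).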

How the results depend on the processing

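Of the 54 called rows, none changed sign under the 15 alternatives to the fit. The count moved to 242 (138 higher, 104 lower) with DESeq2, to 164 (105 and 59) with limma voom and to 8 (8 and 0) with the compared groups alone. It was 41 with no replicate block, so leaving out the pairing kept 40 of the 54. Leaving out each batch in turn gave 29 to 61 calls. Without batch 1, 2, 3 or 4 these were 29, 33, 30 and 31, and without batch 5 or 6 they were 61 and 59. The remaining alternatives gave 51 to 73, and DESeq2's size factors in edgeR gave 57 higher and 16 lower. For the difference from the response without selenite, DESeq2 called 28 rows and limma voom 1. For that from selenite 1, DESeq2 called 14, and leaving out each batch gave 0 to 1 (1 without batch 3). The ribosomal RNA share differed by -13.64 to 7.015 percentage points when a batch was left out, turning positive without batch 2 (1.542), 4 (7.015) or 5 (5.579). The causes were not tested. With symbols as deposited, 0 members of any of the 27 lists were called (34 Atf4 targets and 34 activity genes tested). With the shifted names, 6 of 13 Atf4 targets and 4 of 19 activity genes were called. With identifiers of 1 transcript only, these were 3 and 3. The lists were chosen with earlier results of these data known, so this contrast is no test of the shift. Depth outside ribosomal RNA, as low as 4.95 M, limits genes under about 1 CPM. In the selenite library of batch 5 the limit lies higher. Levels of called rows there step by about 0.75 CPM, the level of the row of Nxph3 and Olfr1359. Levels of a few CPM in that library, such as 4.48 for the shared Fos row, therefore rest on few counts.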
